A study of Mus musculus with 6 samples.

Results

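The genes described here are the matrix metalloproteinases (*Mmp* genes), their tissue inhibitors (*Timp* genes), the ADAM and ADAMTS proteases and the ADAMTS-like genes. They were taken by symbol from the bulk RNA-seq gene tables of mouse embryonic stem cells (mESCs) and of cardiac precursor cell cultures (CPCCs), and numbered 61 of the 16279 genes listed in either table. Both cell types were F1 hybrids of a C57BL/6J mother and a CAST/EiJ father and male, and there were 3 libraries of each. The mESCs were clones grown from single cells and kept with LIF and the inhibitors PD0325901 and CHIR99021, without feeder cells at the time of use. The CPCCs were made from the mESCs by way of aggregates in hanging drops and then floating embryoid bodies with ascorbic acid, which were dissociated, plated on gelatin and passaged in EGF and Fgf2. They are therefore mixed cultures and not sorted cells, and nothing in the tables ties a CPCC library to the clone it came from. The p-values measure the spread between these libraries.

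These families shape the space around a cell. MMPs are zinc proteases that cut collagens and other matrix proteins, most are made as inactive precursors, and the TIMP proteins block them by binding the active site. ADAMTS proteases are secreted and trim proteoglycans, procollagens and microfibril proteins, whereas the ADAMTS-like proteins resemble them but lack the protease domain. ADAM proteins sit in the cell membrane, and those with an active protease domain release the outer part of growth factors, Notch receptors and adhesion proteins. In the developing heart, cuts in versican and other matrix proteins accompany the growth of trabeculae and valves.

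No member of these families that could be tested was lower in CPCCs at the threshold used, an adjusted p under 0.05 in the quasi-likelihood test of edgeR, corrected by Benjamini-Hochberg over 12471 genes. Of the 33 members tested, 25 were higher in CPCCs and 8 did not pass, where 31.7% of all genes tested were higher and 29.7% were lower. Taken as log2 of CPCC over mESC, the median change was 2.63 for these 33 genes and 0.03 for all genes tested. A change of at least 2-fold upward was found for 23 of the 33, and for 25.5% of all genes tested. In 25 of the 33 every CPCC library lay above every mESC library, which held for 35.3% of all genes tested, and in no member did the groups separate the other way, which held for 34.5% of all genes tested. Each table lists only genes with a sum of at least 10 counts over its 3 libraries. Of the members, 34 were listed in both, and 33 of these also passed the filter on low counts. Of the 33, 6 had a mean under 1 CPM in mESCs. With the filter raised to 10 counts in every library, 22 members could be tested, of which 17 were higher, beside 32.1% of all genes. The median log2 fold change of these 22 was 1.64, beside 0.01 for all genes so tested.

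A further 26 members were listed for CPCCs only, 42.6% of the 61, whereas 15.5% of the genes in either table were listed for CPCCs only. One member, *Adam33*, was listed for mESCs only, as were 4.67% of genes. For the CPCC-only genes a fold change was given as a lower bound, against 3 counts in each mESC library. In an mESC library 3 counts equal between 0.439 and 0.463 CPM, the count scaled to a library of 1000000 counts. A bound is the mean CPM in CPCCs over the mean of this floor, with no allowance for counting error or spread between libraries. A bound could be set for 24 of the 26, with a median of at least 9.03-fold, and 11 of them were at least 10-fold higher. The corresponding figures over all CPCC-only genes are not given here. *Mmp1b* and *Adamtsl2* received no fold, since their mean CPM in CPCCs was under the mESC floor, although *Mmp1b* had more than 3 counts in S04 and S06 and *Adamtsl2* in S06. *Mmp25* was listed in both tables but was removed by the filter on low counts. Of the 83 protein-coding members in the GENCODE vM21 annotation, 22 were in neither table, namely *Mmp7*, *Mmp8*, *Mmp20*, *Mmp21*, *Mmp27*, *Adamts13* and 16 *Adam* genes.

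An mESC library held 6442639 to 6907330 counts and a CPCC library 8468819 to 11436062. The summed level of 6 pluripotency genes was 3155 to 3407 CPM in the mESC libraries and 32.3 to 147 CPM in CPCCs. The 7 fibroblast and mesenchyme genes summed to 12.0 to 18.7 CPM in the mESC libraries and 6039 to 9170 CPM in CPCCs, and 4 smooth muscle genes to 0.441 to 1.32 and 5934 to 11069 CPM. Cardiac progenitor genes (6 in the list) reached 38.4 to 128 CPM in CPCCs and 3.97 to 4.68 CPM in mESCs, but most of this sum was *Tnnt2*, with 103, 24.0 and 28.3 CPM in S04 to S06, the 1 gene of the 3 tested that was higher. *Mef2c* was listed for CPCCs only, at 19.3, 9.94 and 12.8 CPM in S04 to S06, at least 31.3-fold above the mESC floor. *Gata4* and *Isl1* did not pass, *Nkx2-5* had at most 1.59 CPM, and *Tbx5* was missing from the CPCC table. The 6 blood and macrophage genes summed to 262, 79.3 and 36.7 CPM in CPCC libraries S04, S05 and S06 and to 10.97 to 15.3 CPM in mESCs. Because these are bulk samples, a lower share of cells of a type and less RNA per cell cannot be told apart.

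*Timp3* and *Timp2* had the largest rises of the members tested. *Timp3*, at chr10:86300412-86349506 on mm10, encodes the TIMP that binds to the matrix and also blocks several ADAM and ADAMTS proteases. Its level was 3.24, 2.35 and 3.36 CPM in mESC libraries S01 to S03 and 1902, 1048 and 687 CPM in CPCC libraries S04 to S06. The groups were far apart, and S04 was the highest library. The log2 fold change was 8.66 (SE 0.47, adjusted p = 2.3e-06 by edgeR), a 404-fold difference.

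*Timp2*, at chr11:118301061-118355412, encodes an inhibitor that also joins MMP14 and the MMP2 precursor in a complex at the cell surface, in which MMP2 is activated. It measured 2.01, 0.588 and 2.49 CPM in the mESC libraries and 844, 504 and 328 CPM in CPCCs. The order of the CPCC libraries was the same as for *Timp3*. Its log2 fold change was 8.35 (SE 0.54, adjusted p = 4.5e-06, edgeR), a 327-fold difference.

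*Timp1*, on the X chromosome at chrX:20870166-20874738, encodes a soluble inhibitor that was at first described for its effect on red cell precursors. Unlike the former genes it was well expressed in mESCs, at 60.7, 71.0 and 48.3 CPM. In CPCCs it reached 556, 329 and 247 CPM, again highest in S04, and the libraries of the 2 cell types did not overlap. The log2 fold change was 2.65 (SE 0.31, adjusted p = 0.000105, edgeR), a 6.29-fold rise. *Timp4*, an inhibitor known from heart and vessels, was listed for CPCCs only, with 0, 3.52 and 1.38 CPM. It was at least 3.64-fold above the mESC floor on average, but at least 1.54-fold without S05, and with S04 at 0 the groups overlapped.

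The genes *Timp1*, *Timp3* and *Timp4* lie within synapsin genes on the other strand, namely *Syn1*, *Syn3* and *Syn2* in that order. Exons of *Timp3* and *Syn3* overlap over 1733 bases and those of *Timp4* and *Syn2* over 90 bases. Whether the counting used strand is not given in the sources used here, so reads from such pairs cannot be told apart in the overlap. The hosts held few counts. *Syn3* had at most 50.3 counts in any library and *Syn2* at most 40.0, and *Syn1* had 54.0 to 89.0 counts in an mESC library and 238 to 321 in a CPCC library.

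**Figure D1:**
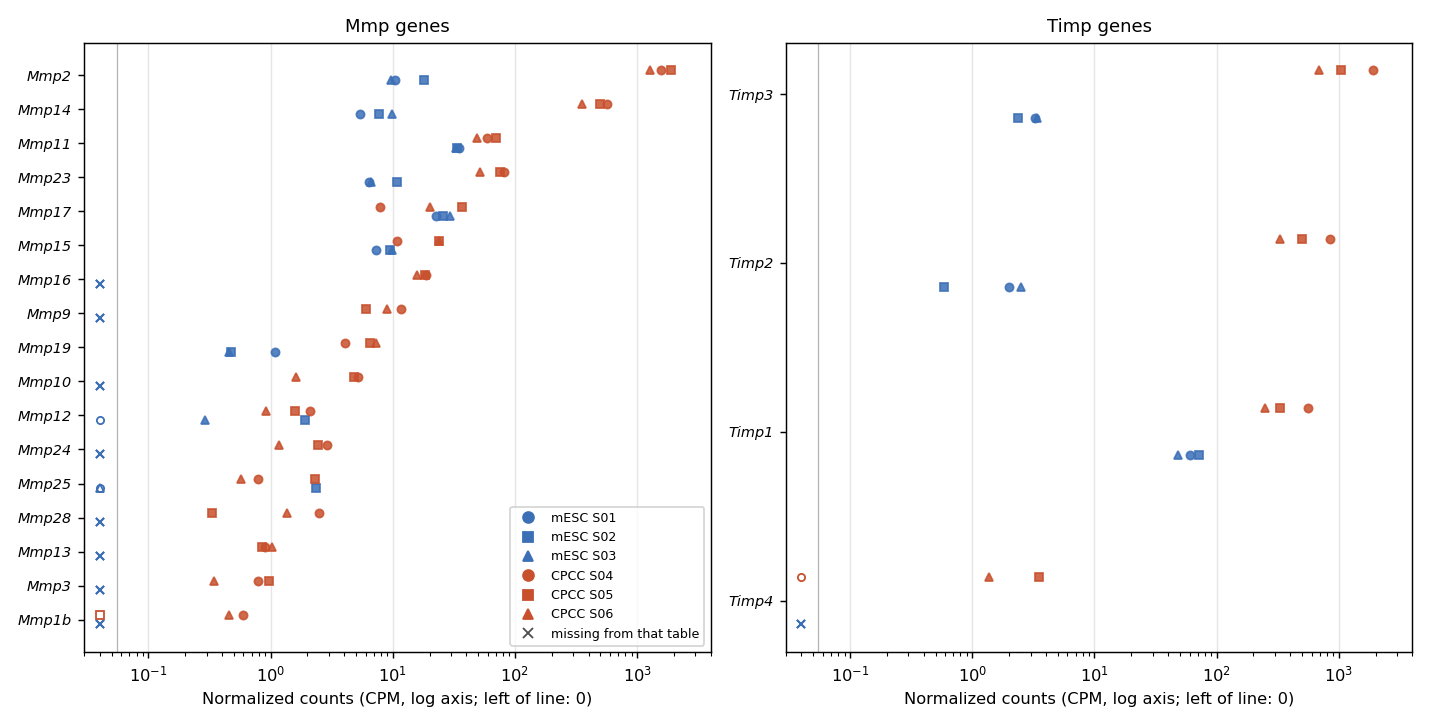
Normalized counts (CPM, log axis) of the 17 *Mmp* and 4 *Timp* genes in each of the 3 mESC (blue) and 3 CPCC (orange) libraries, 1 point per library, with crosses for genes missing from a table. *Timp2*, *Timp3*, *Mmp2* and *Mmp14* show the widest gaps between the cell types, whereas *Mmp17* points of both cell types lie among each other.

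Among the MMPs, the gelatinase *Mmp2* was the most abundant in CPCCs per kilobase. It lies at chr8:92827297-92853422 and encodes an enzyme that cuts denatured collagen and basement membrane collagen. Its level was 10.5, 18.1 and 9.65 CPM in the mESC libraries and 1581, 1876 and 1279 CPM in CPCCs. The lowest CPCC library was thus far above the highest mESC library. The log2 fold change was 6.95 (SE 0.32, adjusted p = 1.4e-06, edgeR), a 124-fold difference. The other gelatinase, *Mmp9*, was listed for CPCCs only, at 11.7, 6.06 and 9.05 CPM, at least 20.0-fold above the floor.

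The transmembrane enzyme gene *Mmp14*, at chr14:54431598-54442457, encodes the main activator of the MMP2 precursor. It measured 5.41, 7.65 and 9.80 CPM in the mESC libraries and 562, 499 and 357 CPM in CPCCs. Its log2 fold change was 5.95 (SE 0.30, adjusted p = 1.8e-06, edgeR), or 61.8-fold. The genes of the MMP14, TIMP2 and MMP2 complex thus were all among the 4 members with the largest tested rises, *Timp3* being the other.

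The other membrane-type enzymes differed among themselves. *Mmp16* was listed for CPCCs only, at a level of 18.6, 18.4 and 15.8 CPM, at least 39.3-fold above the floor. *Mmp15* measured 7.26, 9.41 and 9.95 CPM in the mESC libraries and 10.7, 24.0 and 23.7 CPM in CPCCs. Its log2 fold change of 1.13 (SE 0.36, adjusted p = 0.021, edgeR) did not hold without S01, S02, S05 or S06, when the adjusted p was 0.0767, 0.0509, 0.0804 and 0.0635. *Mmp17*, whose product is held by a lipid anchor, measured 22.4, 25.7 and 29.3 CPM in the mESC libraries and 7.85, 36.6 and 20.1 CPM in CPCCs. Here the groups overlapped, the log2 fold change was -0.27 (SE 0.46, adjusted p = 0.63, edgeR), and it was 0.15 without S04 and -0.89 without S05.

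*Mmp23*, whose product is anchored at its amino end and is released by proprotein convertases, measured 6.33, 10.9 and 6.58 CPM in the mESC libraries and 81.8, 75.1 and 52.1 CPM in CPCCs. It was 8.76-fold higher in CPCCs, with a log2 fold change of 3.13 (SE 0.29, adjusted p = 3.0e-05, edgeR). *Mmp11*, stromelysin-3, is activated inside the cell by furin. Per kilobase it was the highest *Mmp* gene in each mESC library. It measured 34.6, 33.7 and 33.1 CPM there, and CPCCs had 59.4, 69.5 and 48.6 CPM. This rise was small beside those above, with a log2 fold change of 0.81 (SE 0.19, adjusted p = 0.0056, edgeR). In *Mmp19*, which rose (log2 fold change 3.16, SE 0.59, adjusted p = 0.0016, edgeR), counts were not whole in all 6 libraries, and its exons overlap 1001 bases of other genes.

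A group of 5 neighbouring genes on chromosome 9 had low levels in both cell types. They are the collagenases *Mmp13* and *Mmp1b*, the stromelysins *Mmp3* and *Mmp10* and the macrophage elastase *Mmp12*, which other cells make in inflammation and wound repair. *Mmp10* was the highest of them per kilobase, at 5.17, 4.85 and 1.60 CPM in CPCCs. *Mmp13* was at 0.895, 0.849 and 1.03 CPM and *Mmp3* at 0.795, 0.970 and 0.344 CPM, and none of these 3 was listed for mESCs. *Mmp1b* was at 0.596, 0 and 0.458 CPM. *Mmp12* measured 0, 1.91 and 0.293 CPM in the mESC libraries and 2.09, 1.58 and 0.917 CPM in CPCCs, with overlap (log2 fold change 1.03, adjusted p = 0.40, edgeR). Without S02 its log2 fold change was 3.24, and its exons overlap those of *Mmp1b* on the other strand over 157 bases.

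The DNA upstream of this cluster was set beside that upstream of *Timp1*, *Timp2*, *Timp3* and *Mmp14*, which were chosen after their values were seen. In the RefSeq promoter set for GRCm38.p6, 38 of the 61 members had 42 windows, and the 250 bases before each start were searched on both strands for AP-1 (TGANTCA), the TATA box (TATAAA) and GC box (GGGCGG) letters. AP-1 letters were found in 6 of the 42 member windows and in 6.75% of all 32851 windows. Of those 6, 5 belong to this cluster, the other being *Adam19*. The TATA letters stood in 6 member windows, 4 of them in the cluster, and in 12.4% of all windows. The 150 bases before each start are shown to set the cluster beside these inhibitors and *Mmp14*. Each is read 5′ to 3′ on the strand of its gene, with the matches in capitals. For *Mmp12* the later of its pair of starts is given, since the window of the earlier start held no match.
Mmp13, chr9:7272364-7272513, plus strand: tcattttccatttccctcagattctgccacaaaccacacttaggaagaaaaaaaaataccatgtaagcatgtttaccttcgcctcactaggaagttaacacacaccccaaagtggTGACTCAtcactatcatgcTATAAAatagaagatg
Mmp12, chr9:7347224-7347373, plus strand: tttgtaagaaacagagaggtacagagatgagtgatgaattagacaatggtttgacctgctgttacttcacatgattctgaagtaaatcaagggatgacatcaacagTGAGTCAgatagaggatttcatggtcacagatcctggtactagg
Mmp1b, chr9:7388027-7388176, minus strand: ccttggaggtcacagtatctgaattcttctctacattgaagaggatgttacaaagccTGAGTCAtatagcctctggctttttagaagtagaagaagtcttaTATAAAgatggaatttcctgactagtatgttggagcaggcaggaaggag
Mmp3, chr9:7445672-7445821, plus strand: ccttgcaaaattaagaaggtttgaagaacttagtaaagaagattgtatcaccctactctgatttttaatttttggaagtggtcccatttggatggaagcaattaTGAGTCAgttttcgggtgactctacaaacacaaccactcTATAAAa
Mmp10, chr9:7502192-7502341, plus strand: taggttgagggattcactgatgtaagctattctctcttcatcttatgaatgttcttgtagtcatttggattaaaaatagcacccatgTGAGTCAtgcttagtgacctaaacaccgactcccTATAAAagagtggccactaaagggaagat

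Counted back from the start, with the base next to it as -1, the AP-1 letters of these 5 windows begin at -35 in *Mmp13*, -44 in *Mmp12*, -93 in *Mmp1b*, -46 in *Mmp3* and -63 in *Mmp10*. The TATA letters begin at -16 in *Mmp13*, -49 in *Mmp1b*, -7 in *Mmp3* and -29 in *Mmp10*. In *Mmp12* there was no such match. The windows of the cluster had between 37.2% and 42.0% G and C, against a median of 52.4% over all windows and 63.0% over the member windows. The windows of *Timp1*, *Timp2*, *Timp3* and *Mmp14* read as follows.
Timp1, chrX:20870016-20870165, plus strand: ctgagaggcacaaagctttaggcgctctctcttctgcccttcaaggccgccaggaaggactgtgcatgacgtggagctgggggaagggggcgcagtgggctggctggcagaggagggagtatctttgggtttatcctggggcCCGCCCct
Timp2, chr11:118355412-118355561, minus strand: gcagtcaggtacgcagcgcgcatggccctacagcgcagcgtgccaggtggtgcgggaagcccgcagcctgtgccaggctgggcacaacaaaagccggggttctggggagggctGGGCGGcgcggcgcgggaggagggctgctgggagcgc
Timp3, chr10:86300262-86300411, plus strand: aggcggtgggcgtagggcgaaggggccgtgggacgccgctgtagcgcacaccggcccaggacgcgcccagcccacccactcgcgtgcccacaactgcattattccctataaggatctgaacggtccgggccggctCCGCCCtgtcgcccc
Mmp14, chr14:54431448-54431597, plus strand: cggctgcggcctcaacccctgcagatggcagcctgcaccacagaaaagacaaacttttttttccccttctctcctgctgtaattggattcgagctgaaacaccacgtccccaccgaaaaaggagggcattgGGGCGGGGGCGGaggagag

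The capitals in these 4 windows mark GC boxes on either strand, whose first base is at -8 in *Timp1*, -37 in *Timp2*, -15 in *Timp3* and -19 and -13 in *Mmp14*. Neither of the other motifs was found in the 250 bases before these starts. GC box letters stood in 24 of the 42 member windows and in 32.7% of all windows, and in none of the cluster. They were also absent from the windows of *Adam19*, *Adamts12* and *Mmp23*, which are well expressed in CPCCs, and *Mmp2*, *Mmp9* and *Adamts5* had no window. The window of *Timp4*, not shown here, held none of the motifs searched. GC boxes also stood in windows of members low in CPCCs, among them *Mmp24*, *Mmp25*, *Mmp28* and *Adamtsl2*. Their CPCC means were 0.50, 0.27, 0.41 and 0.12 CPM per kilobase of the longest transcript. Any link between motifs and level was not tested. A match is a run of letters and not a measured binding site.

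**Figure D2:**
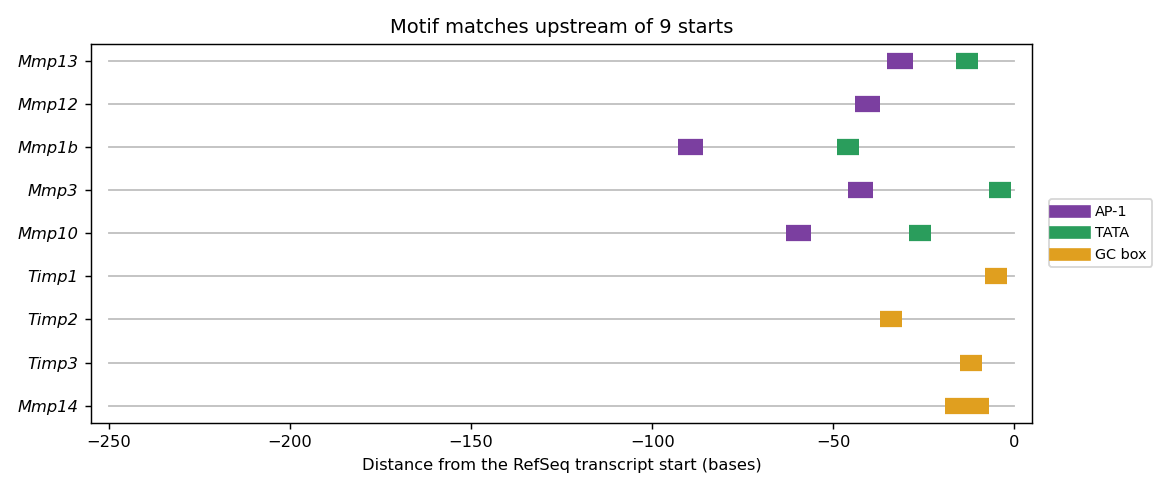
Matches to AP-1 (purple), TATA (green) and GC box (yellow) letters in the 250 bases before 9 RefSeq starts, with the distance from the start in bases on the horizontal axis. The 5 upper rows are the chromosome 9 cluster and carry AP-1 letters between -93 and -35, and the 4 lower rows carry GC boxes only.

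To compare levels between genes, CPM were divided by the length of each gene's merged exons in kilobases. On this per-kilobase scale the 17 *Mmp* genes summed to 26.6 ± 2.96 CPM per kb in mESCs and 616 ± 112 in CPCCs (SD, n = 3 each), a 23.2-fold difference of means. The *Timp* genes summed to 68.4 ± 12.5 and 717 ± 324 CPM per kb, 10.5-fold. The *Adamts* genes went from 7.27 ± 1.495 to 75.1 ± 15.4 CPM per kb, the *Adamtsl* genes from 2.57 ± 0.719 to 9.36 ± 2.53 and the *Adam* genes from 50.6 ± 4.91 to 160.7 ± 60.0. In each of these 5 sums the CPCC libraries lay above the mESC libraries.

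The make-up of the families changed with their level. *Mmp11* gave between 40.6% and 51.4% of the per-kilobase *Mmp* sum in mESCs and between 3.37% and 3.53% in CPCCs. *Mmp2* gave between 11.2% and 17.9% in mESCs and between 73.8% and 77.5% in CPCCs. Among the inhibitors, *Timp1* gave 98.1% to 99.5% of the sum in mESCs and 58.2% to 62.2% in CPCCs, the rest being shared about evenly by *Timp2* and *Timp3*. This even split depends on the length used. Per kilobase of the longest transcript, *Timp3* was at 403, 222 and 146 CPM in S04 to S06 and *Timp2* at 228, 136 and 88.3 CPM. The ratio of the *Timp* sum to the *Mmp* sum was 2.86, 2.69 and 2.16 in mESCs and 1.69, 0.876 and 0.902 in CPCCs, so that every CPCC library had the lower ratio. With 3 libraries against 3 the smallest p an exact two-sided permutation test can give is 0.10, so none was made.

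**Figure D3:**
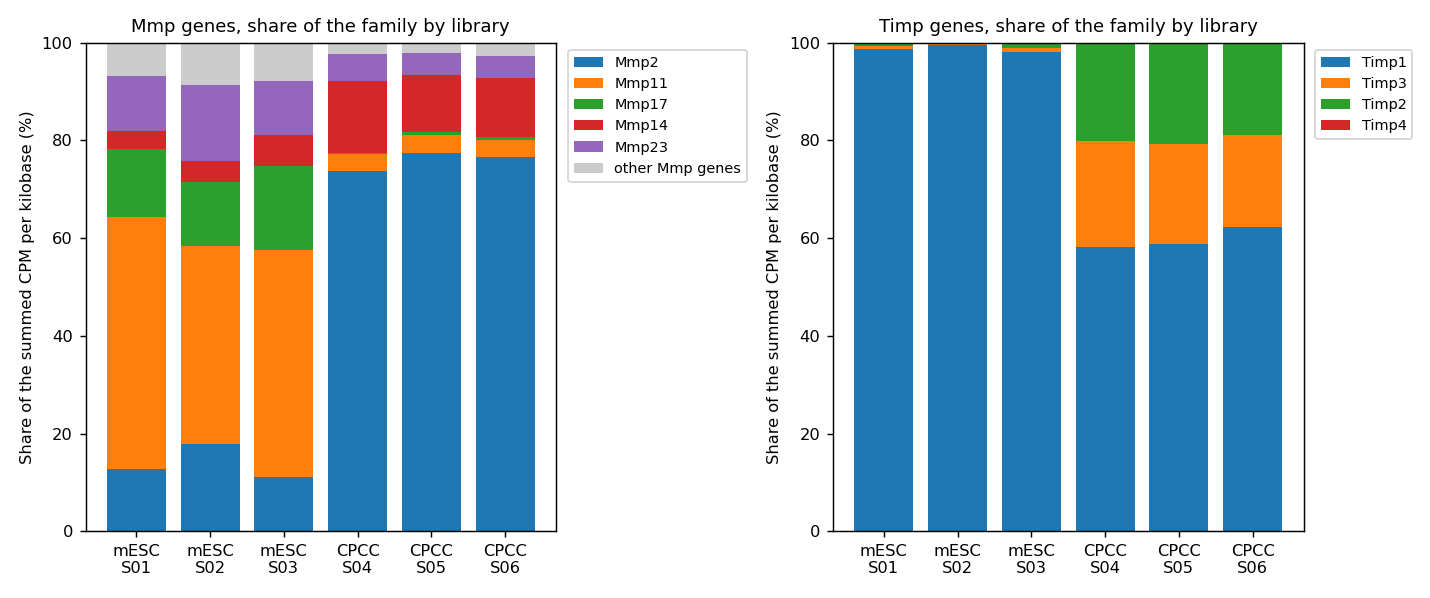
Share of each gene in the summed CPM per kilobase of the *Mmp* family (left) and the *Timp* family (right), 1 stacked bar per library from 0 to 100%. *Mmp11* is the largest part of the *Mmp* bars in mESCs and *Mmp2* in CPCCs, and *Timp2* and *Timp3* are thin lines in the mESC bars.

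By mean level in CPCCs the order was *Mmp2* (468 ± 88.6 CPM per kb), *Timp1* (425 ± 180), *Timp3* (149 ± 76.6), *Timp2* (143 ± 67.4), *Mmp14* (79.2 ± 17.6) and *Adam19* (53.5 ± 15.7), as mean ± SD of 3 libraries. The libraries of *Mmp2* and *Timp1* overlapped, as did those of *Timp3* and *Timp2*. Within each CPCC library *Mmp2* stood at the 99.6th to 99.7th percentile of all genes by this measure. The level of *Timp1* was 2.68 to 3.30 times that of *Timp3* in each CPCC library, with a mean ratio of 2.95, which was 1.72 with the length of the longest protein-coding transcript in place of merged exons.

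In the ADAMTS family 7 listed genes encode enzymes that cut aggrecan and versican, of which 2 were listed for CPCCs only, 4 rose and 1 did not pass. *Adamts5*, at chr16:85858157-85901126, was listed for CPCCs only, at 264, 72.5 and 55.6 CPM. It was at least 292-fold above the mESC floor, and at least 143-fold without S04. *Adamts1*, its neighbour at chr16:85793828-85803114, was also listed for CPCCs only but at an even level, 61.1, 55.1 and 57.1 CPM, at least 129-fold above the floor. The 2 genes lie on the same strand, with 53059 bases between them in the GENCODE vM21 annotation.

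*Adamts4* was the member of this group with the highest level per kilobase in mESCs, at 10.8, 13.5 and 11.4 CPM, and measured 38.3, 42.9 and 39.1 CPM in CPCCs. Its log2 fold change was 1.75 (SE 0.21, adjusted p = 0.000129, edgeR), or 3.36-fold. *Adamts9* (log2 fold change 1.79), *Adamts20* (2.88) and *Adamts15* (3.70) rose as well. *Adamts8* lies 20109 bases from *Adamts15* on chromosome 9 and had 5.56, 10.1 and 7.02 CPM in the mESC libraries and 5.57, 5.46 and 4.58 CPM in CPCCs, which overlap (log2 fold change -0.54, SE 0.38, adjusted p = 0.24, edgeR).

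The ADAMTS gene with the highest mean level per kilobase in CPCCs was *Adamts12*, at chr15:11064773-11349233, whose product cuts cartilage oligomeric matrix protein. It was missing from the mESC table and measured 225, 214 and 121 CPM in CPCCs, at least 417-fold above the floor, the highest bound of the members. *Adamts7*, its closest relative, was already present in mESCs at 3.55, 6.03 and 4.83 CPM and reached 29.3, 39.4 and 21.1 CPM in CPCCs (log2 fold change 2.63, SE 0.33, adjusted p = 0.00017, edgeR). Of the procollagen N-proteinases, which trim fibrillar collagens, *Adamts2* and *Adamts3* were listed for CPCCs only, at least 19.2-fold and 9.10-fold above the floor. The third, *Adamts14*, measured 7.11, 12.4 and 4.39 CPM in the mESC libraries and 15.3, 19.0 and 11.7 CPM in CPCCs and did not pass (adjusted p = 0.066, edgeR).

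*Adamts10*, whose product acts on fibrillin microfibrils, had the largest tested rise of the family. Its levels were 0.927, 0.883 and 1.17 CPM in the mESC libraries and 17.7, 15.8 and 13.2 CPM in CPCCs, a 15.4-fold difference (log2 fold change 3.95, SE 0.37, adjusted p = 3.2e-05, edgeR). Its close relative *Adamts6* was listed for CPCCs only, at 49.5, 37.0 and 32.9 CPM, at least 88.9-fold above the floor. *Adamts16* was at 8.55, 47.1 and 32.8 CPM in CPCCs, with S04 the lowest library, and at least 65.8-fold above the floor.

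The ADAMTS-like genes encode matrix proteins without protease activity, several of which bind fibrillin. *Adamtsl1* measured 0.463, 2.21 and 1.61 CPM in the mESC libraries and 50.0, 34.2 and 18.9 CPM in CPCCs, the largest tested rise outside the *Timp* and *Mmp* genes (log2 fold change 4.57, SE 0.54, adjusted p = 0.000112, edgeR). *Adamtsl5* rose from 3.40, 0.735 and 0.146 CPM to 11.4, 12.9 and 9.51 CPM (log2 fold change 2.98, SE 0.75, adjusted p = 0.0073, edgeR), which was 4.63 without S01. *Adamtsl3* was listed for CPCCs only, at 13.9, 11.6 and 14.9 CPM and at least 30.1-fold above the floor. *Adamtsl4* overlapped between the cell types, with 8.65, 11.8 and 6.73 CPM against 15.9, 9.70 and 5.73 CPM (log2 fold change 0.21, SE 0.42, adjusted p = 0.68, edgeR), and without S04 its log2 fold change was -0.22.

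**Figure D4:**
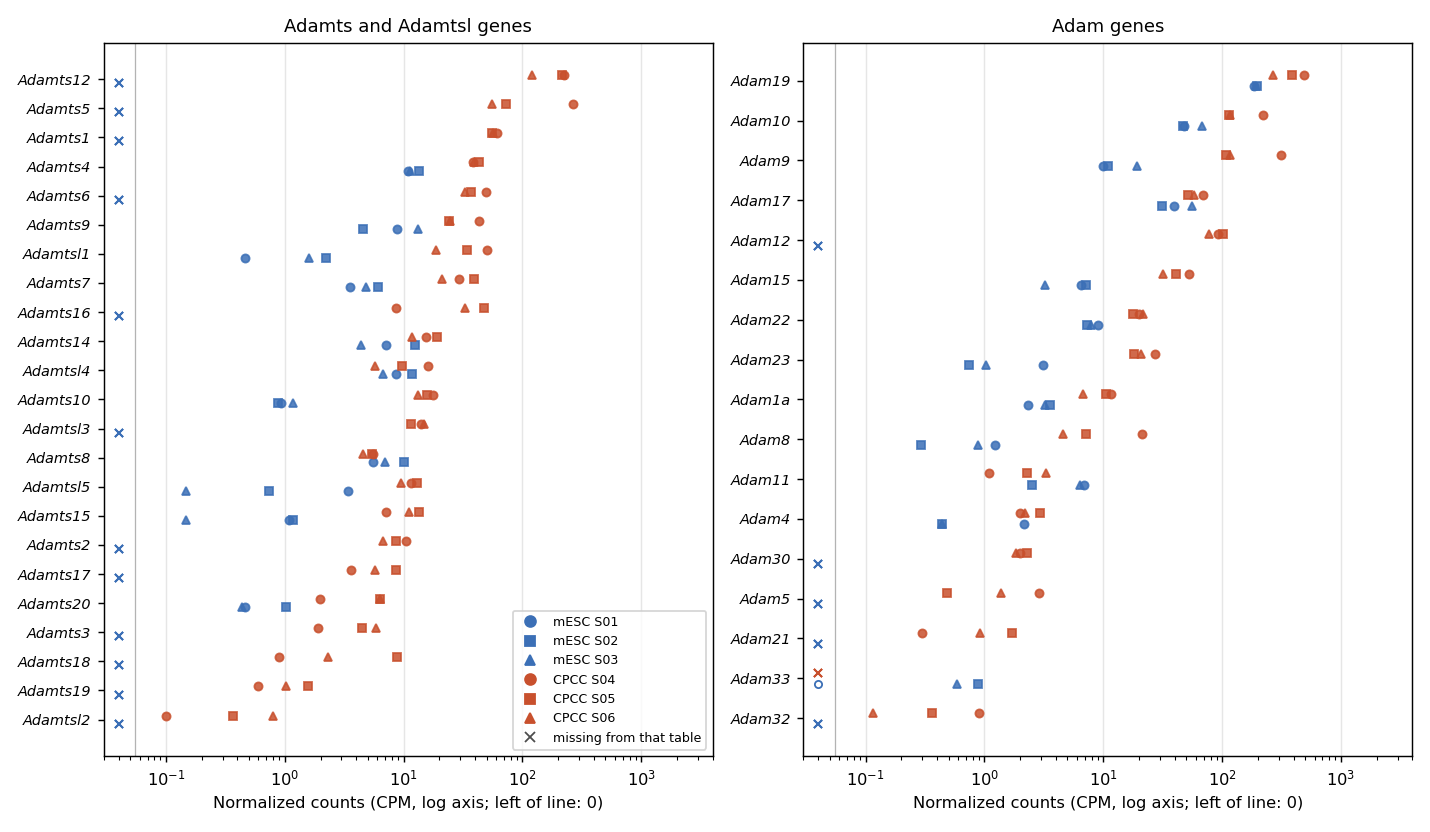
Normalized counts (CPM, log axis) of the 23 *Adamts* and *Adamtsl* genes (left) and the 17 *Adam* genes (right), 1 point per library, mESCs in blue and CPCCs in orange, with crosses for genes missing from a table. Crosses stand for mESCs in 12 genes on the left, among them *Adamts12*, *Adamts5* and *Adamts1*, and *Adam17* and *Adam19* are well expressed in both cell types.

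Several ADAM genes were already well expressed in mESCs. *Adam19*, at chr11:46054502-46147348, encodes a protease that is needed for the cushions and valves of the heart. Its levels of 187, 196 and 191 CPM were close to each other in mESCs, and CPCCs had 491, 384 and 267 CPM. The log2 fold change was 0.99 (SE 0.22, adjusted p = 0.0037, edgeR), a 1.99-fold difference. Its close relative *Adam12* was missing from the mESC table and measured 92.4, 101 and 77.7 CPM in CPCCs, at least 202-fold above the floor.

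*Adam10* and *Adam17* encode the main sheddases, ADAM10 for Notch receptors and cadherins and ADAM17 for tumour necrosis factor and several growth factors of the EGF family. *Adam10* measured 47.4, 46.8 and 67.1 CPM in the mESC libraries and 220, 114 and 117 CPM in CPCCs, a 2.79-fold rise (log2 fold change 1.48, SE 0.29, adjusted p = 0.0019, edgeR). *Adam17* measured 39.0, 31.1 and 55.7 CPM against 68.6, 51.5 and 58.3 CPM. These ranges overlapped and the difference did not pass (log2 fold change 0.50, SE 0.24, adjusted p = 0.098, edgeR). Whether the changes of *Adam10* and *Adam17* differ from each other was not tested.

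*Adam9*, a widely expressed sheddase, rose from 10.04, 11.03 and 19.2 CPM to 315, 109 and 117 CPM (log2 fold change 3.75, SE 0.47, adjusted p = 0.00017, edgeR). Its neighbours on chromosome 8, *Adam32* and *Adam5*, which are known from the testis, were listed for CPCCs only and had at most 0.895 and 2.88 CPM. *Adam15* rose 7.38-fold (log2 fold change 2.88). *Adam8*, known from leukocytes, measured 1.24, 0.294 and 0.878 CPM in the mESC libraries and 21.4, 7.15 and 4.58 CPM in CPCCs (log2 fold change 3.77, SE 0.75, adjusted p = 0.0021, edgeR). The order of the CPCC libraries was that of the summed blood and macrophage genes given above, whose part in this result was not tested. Without S04 the log2 fold change was 2.86 for *Adam8* and 3.08 for *Adam9*.

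The ADAM genes without protease activity include *Adam11*, *Adam22* and *Adam23*, which encode receptors of LGI proteins in nerve cells. *Adam23* had the largest tested rise of the *Adam* genes, from 3.09, 0.735 and 1.02 CPM to 27.4, 18.3 and 20.9 CPM (log2 fold change 3.78, SE 0.50, adjusted p = 0.00021, edgeR). Without S01 it was 4.63. *Adam22* rose from 8.96, 7.35 and 7.90 CPM to 20.2, 17.8 and 21.5 CPM (log2 fold change 1.30, SE 0.25, adjusted p = 0.0019, edgeR). The 4 neural marker genes summed to 38.8 to 46.4 CPM in mESCs and to 531 to 566 CPM in CPCCs. Most of the CPCC sum was *Nes*, with 336, 410 and 329 CPM in S04 to S06, and *Tubb3*, with 215, 118 and 133 CPM. In these libraries *Sox1* had 3.78, 23.4 and 50.9 CPM and *Pax6* had 4.62, 14.2 and 18.2 CPM. The part of these genes in the rises of *Adam22* and *Adam23* was not tested. *Adam11* had 6.95, 2.50 and 6.44 CPM in the mESC libraries and 1.09, 2.30 and 3.32 CPM in CPCCs, with overlap (log2 fold change -1.24, SE 0.59, adjusted p = 0.097, edgeR). *Adam33* had 0, 0.883 and 0.585 CPM in mESCs. *Adam1a* passed the test (log2 fold change 1.66), but 7432 bases of its exon model overlap other genes, *Mapkapk5* among them, so its value is uncertain. Exons of 17 members overlap other genes, over 311 bases in *Adam17*, 1263 in *Adam15*, 171 in *Adamts4* and 155 in *Mmp11*, and estimated counts were not whole for 17 members in at least 1 library.

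**Figure D5:**
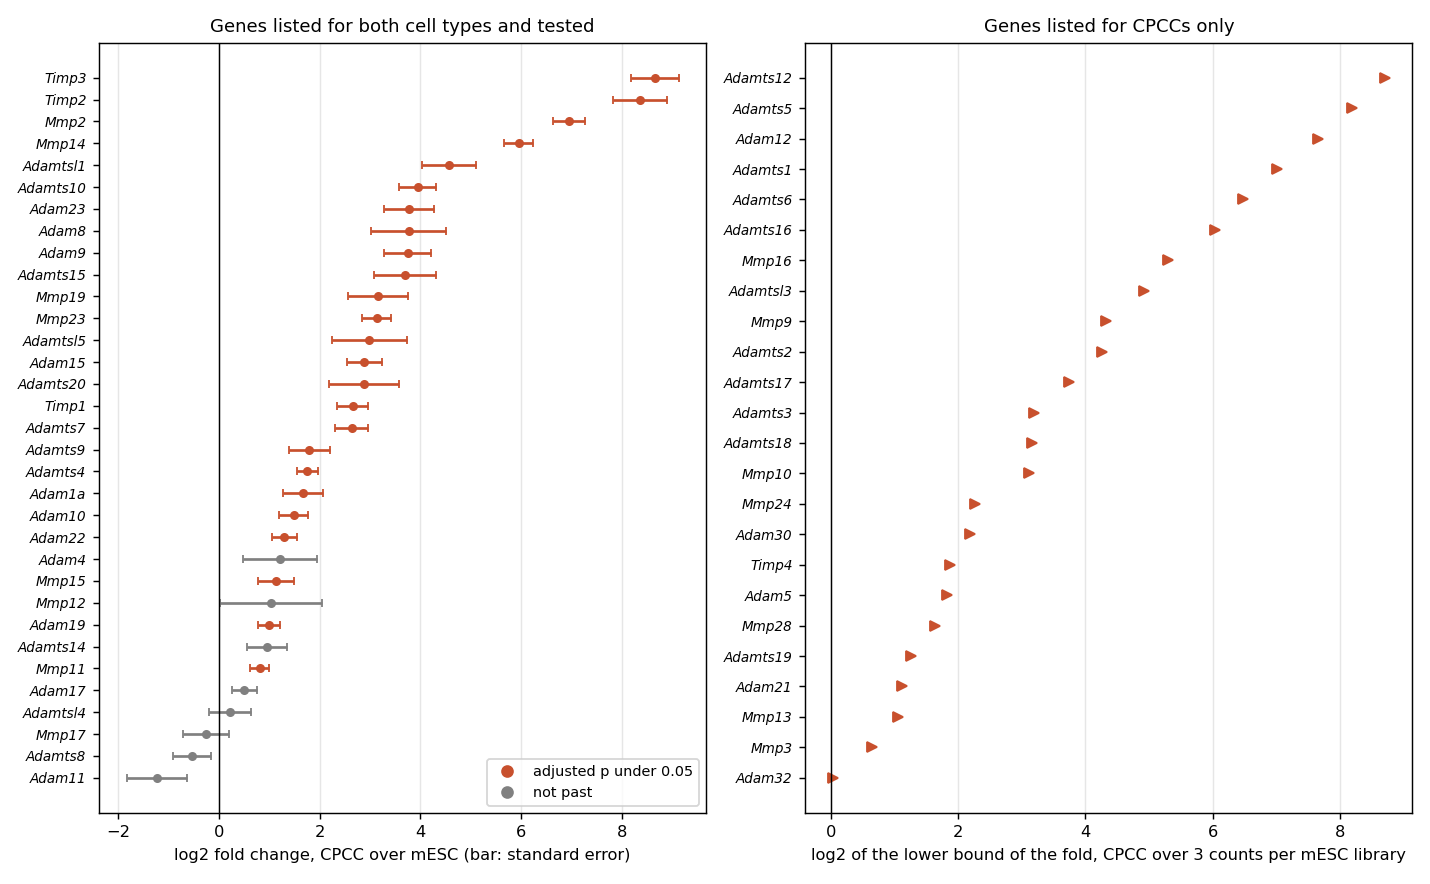
Left, log2 fold change, CPCC over mESC, with its standard error for the 33 members tested by edgeR, coloured by an adjusted p under 0.05. Right, the log2 of the lower bound of the fold for the 24 members listed for CPCCs only, against 3 counts in each mESC library. The 25 coloured points on the left all lie above 0, from 0.81 for *Mmp11* to 8.66 for *Timp3*.

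Genes that act with these families were read from 6 lists, whose counts stand beside the 31.7% of all genes tested that were higher and the 29.7% that were lower. Among 12 activators of protease precursors, 7 could be tested, 4 were higher, 1 was lower and 2 did not pass (median log2 fold change 1.60). The plasminogen activator *Plat* rose by 7.48 on the log2 scale and the urokinase receptor gene *Plaur* by 6.11 (5.24 without S04 and 7.75 without S02), whereas the proprotein convertase gene *Pcsk6* fell by 3.08. *Prss23*, a serine protease gene listed for CPCCs only, was at least 2509-fold above the floor, and at least 1591-fold without S04. *Furin*, whose product activates MMP14 and MMP11, measured 8.96, 7.80 and 4.53 CPM in the mESC libraries and 59.8, 49.0 and 48.4 CPM in CPCCs.

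Of 13 inhibitors and clearance receptors outside the *Timp* genes, 7 were tested, 3 were higher and 4 did not pass (median 0.30). Among the higher ones were *Serpine2* (5.43), which encodes a serine protease inhibitor, and *Lrp1* (3.67), which takes up protease and inhibitor complexes. *Reck*, a membrane-anchored inhibitor of MMPs, measured 22.1, 20.2 and 34.7 CPM in the mESC libraries and 54.1, 21.3 and 18.8 CPM in CPCCs and did not pass (log2 fold change 0.30, adjusted p = 0.56, edgeR), and it was -0.34 without S04. *Thbs1*, which was listed for CPCCs only, was at least 5614-fold above the floor, and at least 3331-fold without S04. *Pzp*, a broad protease inhibitor of the alpha-2-macroglobulin family, was listed for mESCs only, at 9.89, 8.09 and 9.20 CPM.

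The 9 trafficking factors of ADAM10 and ADAM17 were all tested, and 3 were higher, 2 were lower and 4 did not pass (median 0.15). *Rhbdf1*, an iRhom that carries ADAM17 to the surface, rose by 2.33, and of the tetraspanins that accompany ADAM10, *Tspan10* rose by 1.68 and *Tspan15* fell by 1.63 (adjusted p = 0.019, edgeR, and 0.076 without S02). The other lower gene, *Tspan14*, fell by 0.50 (adjusted p = 0.030, edgeR), which passed without S06 but not without any of the other libraries. Of 7 astacin proteases and their enhancers, 3 were tested. *Bmp1*, the procollagen C-proteinase, rose from 1.70, 3.09 and 2.05 CPM to 719, 563 and 448 CPM (log2 fold change 7.97) and its enhancer *Pcolce* rose by 1.51, whereas *Pcolce2* fell by 2.85. *Mep1b*, a meprin gene, was listed for mESCs only, at 14.8, 11.03 and 11.1 CPM.

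Known targets of the enzymes changed as well. Of 22 ADAM substrates, 13 were tested, 10 were higher, 1 was lower and 2 did not pass (median 2.72), and among the tested genes *App* (6.19, 5.58 without S04), *Cdh2* (5.59) and *Prnp* (4.54) rose most. *Cd44*, a hyaluronan receptor gene listed for CPCCs only, was at least 1049-fold above the floor. The lower gene was *Cdh1*, E-cadherin, with 337, 376 and 589 CPM in the mESC libraries and 48.5, 53.5 and 154 CPM in CPCCs (log2 fold change -2.35, and -3.08 without S06). *Notch1* (1.69) and *Notch2* (1.47), cleaved by ADAM10, rose. Of 16 ADAMTS substrates, 10 were tested, 7 were higher, 1 was lower and 2 did not pass (median 5.79). Among the tested genes *Col1a1* (12.40), *Bgn* (9.96, 10.78 without S03) and *Fbn1* (8.04) rose most, the versican gene *Vcan* rose by 3.32, and *Vwf* fell by 3.85. *Col1a2* and *Col3a1*, listed for CPCCs only, were at least 5302-fold and 3729-fold above the floor. *Col1a1*, *Col1a2* and *Col3a1* are also fibroblast markers used above.

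The CPCC libraries differed from each other in many members. Among the 54 members with a CPCC mean of at least 1 CPM, 23 (42.6%) had a highest library at least 2 times the lowest, as did 31.0% of the 13966 genes at such a mean. S04 was the highest library in 30 of the 54 and the lowest in 14, where over all these genes it was the highest in 39.7% and the lowest in 42.1%. The level in S04 over the mean of S05 and S06 was 4.12 for *Adamts5*, 3.64 for *Adam8*, 2.80 for *Adam9*, 2.19 for *Timp3*, 2.03 for *Timp2* and 1.93 for *Timp1*. It was 0.214 for *Adamts16*, 0.277 for *Mmp17*, 0.315 for *Adamts20* and 0.450 for *Mmp15*. S04 also had the highest sum of the smooth muscle, cardiac progenitor and blood and macrophage genes and the lowest sum of the pluripotency genes, and the part of these in the spread was not tested.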

How the data were processed

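The authors made cDNA from polyadenylated RNA with SMART-Seq v4 and deposited estimated counts per gene, 1 table per cell type, which were not normalized. The submitters' processing notes name STAR 2.7 and mm10, while the counter and its use of strand are not given in the sources used here. Gene positions are those of the tables, where the end is often 1 base past the last base. Distances between genes and exon overlaps come from GENCODE vM21.

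Counts were rounded to whole numbers. The 13001 genes in both tables were filtered with filterByExpr, which removed 530, and 12471 were tested with edgeR 4.0.16 (quasi-likelihood, TMM) in R 4.3.3. DESeq2 1.42.0 was an alternative. CPM are counts scaled to 1000000 of the TMM-adjusted library size over the shared genes. Gene lengths came from GENCODE vM21 (GRCm38) and promoters from RefSeq (GRCm38.p6). The fits were tested on simulated data. The members and lists were chosen with earlier results of these data known. Genes named singly are the *Timp* genes, the members of each family with the highest mean CPM or the largest change past the threshold, and the 3 largest changes of each list, of which 1 is not reported here, and others were named after their values were seen.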

Additional observations from a re-analysis of the deposited data

How the results depend on the processing

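With DESeq2, upper-quartile scaling, library totals without TMM, library sizes over whole tables or no filter on low counts, 25 members were higher and none lower, as in the report. The median log2 fold change of the members tested, 2.63 in the report, was 2.24 with no filter and 1.64 with at least 10 counts in every library, where fewer members were tested. With genes missing from a table set to 0 or to 3 counts per library, 39 of 47 members passed in either case, all higher, with medians of 3.72 and 3.06. The 14 members so added are missing from the mESC table, which fixed their direction. Leaving out each library in turn gave 24 to 26 members past the threshold and medians of 2.03 to 2.80. Without S04 the direction turned for *Adamtsl4* (-0.22, over all left-out libraries up to 0.51) and *Mmp17* (0.15, down to -0.89), and neither passed in any fit. *Mmp15* ranged from 0.96 to 1.44 and lost its call without S01, S02, S05 or S06. *Adamts14* passed with at least 10 counts in every library (adjusted p = 0.045, edgeR) and without S02, *Adam4* without S01 and *Adam17* without S03. The cause was not tested. The per-kilobase ratio of *Timp1* to *Timp3* (2.95) was 1.72, and that of *Mmp14* to *Mmp2* (0.17) was 0.29, with the length of the longest transcript, an alternative chosen after seeing the data, as were those on bounds and on the genes of the lists. The bound of *Adamts5* ranged from 143 to 376 and that of *Timp4* from 1.54 to 5.46 when a CPCC library was left out. No paired analysis was possible because the columns carry no replicate numbers. At this depth members missing from the mESC table could be compared only by a bound or with a set count in place of the missing one. Some tested members rest on few mESC counts, such as *Adamts15* with 1 count in S03 and *Adam8* with 2 in S02.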
